A study of Caenorhabditis elegans with 2 samples.

Results

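The peaks described here are the DPL-1 binding sites whose summit lay inside an intron of a protein-coding gene and away from any annotated gene start. The starting point was the deposited IDR list, in which IDR stands for the irreproducible discovery rate, a statistic that compares the ranks of peaks in replicates. A peak of that list was taken when its summit lay in an intron, in no exon of any annotated transcript, and outside the promoter windows. A promoter window covered the 1000 bp before and the 200 bp after any 5' end of a protein-coding transcript. Of 2797 IDR peaks, 210 met this rule (7.51%, exact 95% interval 6.56 to 8.55), and they lay in 178 host genes. The sites were mapped by chromatin immunoprecipitation and sequencing in whole C. elegans larvae of stage L1, of mixed sex, in 2 samples that the labels call biological replicates of 1 group. All animals were of strain OP105, with the genotype unc119(ed3) and the transgene wgIs105(dpl-1::TY1 EGFP FLAG;unc119), so the protein that was precipitated is a tagged DPL-1 made from an inserted transgene in an unc-119 mutant rescued for that gene. The labels list no change at the native dpl-1 gene and do not say what drives the transgene. There is no second group, so nothing was compared between conditions, and the control experiment named in the labels was not analysed here.

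DPL-1 is the worm DP protein. DP proteins pair with E2F factors to bind DNA, and in the DREAM complex they help to repress cell-cycle genes, mostly from sites just before gene starts, where E2F words and the cell-cycle homology region (CHR) are the known sequence elements. Most C. elegans introns are very short, and the few long ones are where enhancers and alternative gene starts are usually found. Many worm genes have several annotated 5' ends, so that an intron of the longest transcript can lie before the start of a shorter one. Because whole larvae were used, a site bound weakly in all cells and a site bound strongly in few cells cannot be told apart.

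Windows of 8 peaks, all of the same length, are shown because they span the kinds of sequence found under the stronger intronic peaks. They were read from the RefSeq genome of the ce11 build on the plus strand, 100 bp to each side of the summit, and are written 5' to 3'. Capitals mark E2F words, the word CTGCGTC and GAGAGA repeats, each on either strand, with overlapping matches joined. The 4 forms counted as E2F words are TTCCCGC, the related TTGGCGC, then TTCGCGC and lastly TTGCCGC. The epg-9 window (IV:2602045-2602245) and the lron-13 window (III:13530139-13530339) hold an E2F word and CTGCGTC.
epg-9: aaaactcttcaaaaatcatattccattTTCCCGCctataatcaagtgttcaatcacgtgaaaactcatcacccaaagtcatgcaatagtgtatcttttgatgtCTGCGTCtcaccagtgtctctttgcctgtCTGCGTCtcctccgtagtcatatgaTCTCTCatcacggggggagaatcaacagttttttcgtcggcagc
lron-13: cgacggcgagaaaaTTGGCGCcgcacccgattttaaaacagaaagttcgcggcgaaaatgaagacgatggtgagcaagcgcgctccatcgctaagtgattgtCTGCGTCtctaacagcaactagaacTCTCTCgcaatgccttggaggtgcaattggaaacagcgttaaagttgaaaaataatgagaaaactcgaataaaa
The Y75B8A.25 window (III:12278872-12279072) and the gei-4 window (III:349475-349675) hold an E2F word without CTGCGTC.
Y75B8A.25: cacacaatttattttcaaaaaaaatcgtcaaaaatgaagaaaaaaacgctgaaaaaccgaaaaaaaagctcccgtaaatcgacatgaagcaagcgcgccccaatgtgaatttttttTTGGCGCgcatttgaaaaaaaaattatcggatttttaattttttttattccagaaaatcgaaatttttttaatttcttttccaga
gei-4: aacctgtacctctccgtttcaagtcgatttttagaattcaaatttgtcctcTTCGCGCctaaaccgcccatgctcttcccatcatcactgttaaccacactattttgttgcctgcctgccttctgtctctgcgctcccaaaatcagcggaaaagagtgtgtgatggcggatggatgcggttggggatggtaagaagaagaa
The Y111B2A.12 window (III:12612541-12612741) and the W06H8.6 window (V:6224516-6224716) hold CTGCGTC without an E2F word, and in the latter it is read on the opposite strand.
Y111B2A.12: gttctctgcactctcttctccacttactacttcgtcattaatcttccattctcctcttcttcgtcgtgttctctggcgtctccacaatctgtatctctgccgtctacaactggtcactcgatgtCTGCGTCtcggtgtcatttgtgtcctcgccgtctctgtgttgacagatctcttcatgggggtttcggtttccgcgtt
W06H8.6: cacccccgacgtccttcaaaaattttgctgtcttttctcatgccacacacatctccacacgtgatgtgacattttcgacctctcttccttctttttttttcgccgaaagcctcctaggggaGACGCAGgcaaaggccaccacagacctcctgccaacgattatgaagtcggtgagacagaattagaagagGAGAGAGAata
The pygl-1 window (V:3579837-3580037) holds 4 overlapping GAGAGA matches and neither word, and the egl-5 window (III:7814857-7815057), from the strongest intronic peak of all, holds none of the 3 kinds.
pygl-1: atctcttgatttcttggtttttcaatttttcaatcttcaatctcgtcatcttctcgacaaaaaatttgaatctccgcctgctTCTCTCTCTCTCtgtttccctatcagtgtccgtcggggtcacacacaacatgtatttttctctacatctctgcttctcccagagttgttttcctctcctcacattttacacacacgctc
egl-5: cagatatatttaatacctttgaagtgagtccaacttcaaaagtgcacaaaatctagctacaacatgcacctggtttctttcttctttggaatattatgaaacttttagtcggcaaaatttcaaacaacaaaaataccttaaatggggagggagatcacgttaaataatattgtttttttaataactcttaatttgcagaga
The windows are examples and not always the strongest of their kind, since the peaks of slc-36.4 and set-18, whose windows are not printed, hold an E2F word without CTGCGTC and are stronger than those of Y75B8A.25 and gei-4. No pair of the 210 windows at different sites shared 25% or more of its 16-base stretches.

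Intronic peaks were mostly weak members of the list. The signal of a peak is the authors' own value on a scale that is not stated, and it is used here only to rank peaks within a list. It ran from 30.4 to 504 over the intronic peaks, with a median of 48.1, against medians of 86.9 in 2094 promoter-window peaks, 49.1 in 385 intergenic peaks and 44.4 in 108 exonic peaks. None of the 100 strongest IDR peaks was intronic, and 5 of the 500 strongest were. The strongest quintile of the list held 8 intronic peaks (1.43%), the next held 32, then 36 and 66, and the weakest held 68 (12.1%). The replicates' own lists of the same length gave 8.5 ± 0.707 and 72 ± 1.41 intronic peaks in the strongest and weakest quintile (SD, n = 2). Below the IDR threshold the pooled list, which is deposited as peaks and background, went on in the same direction. Its intronic share was 18.9% at ranks 2798 to 5594, 25.9% at ranks 5595 to 10000 and 28.8% beyond. The shares at these last ranks lie near the 26.5% of the genome that is intronic sequence the rule could have taken. The order of the class medians and the quintile counts is a description of these lists and was not tested.

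**Figure D1:**
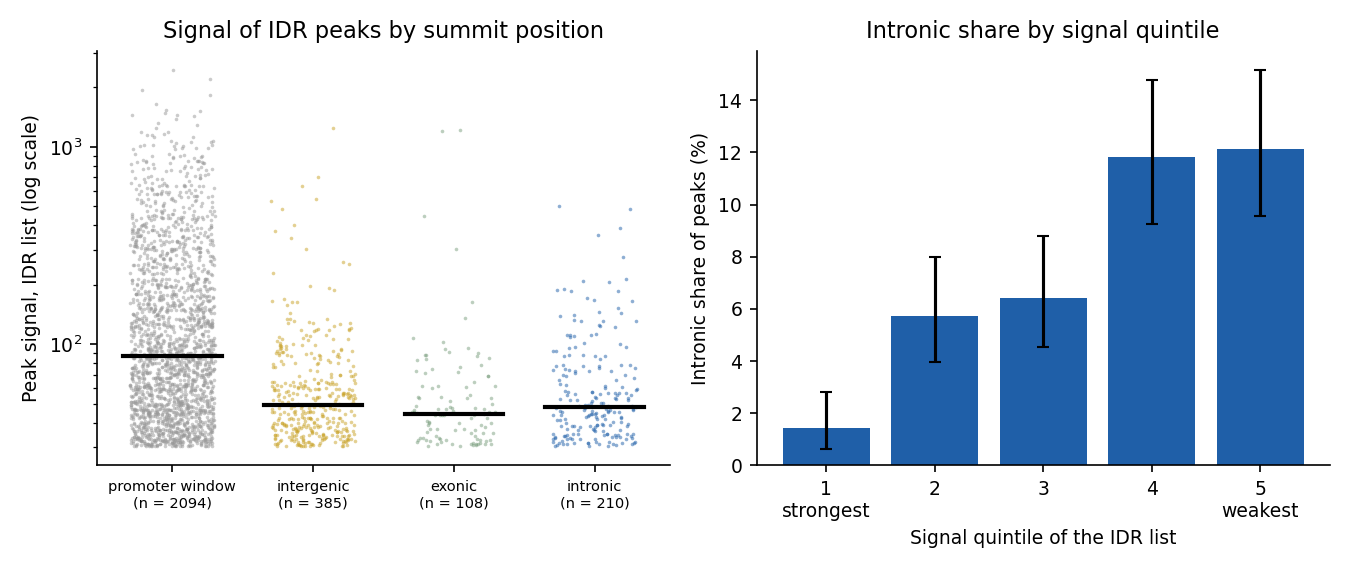
Left, signal of every IDR peak on a log scale by the position of its summit, with the class median as a black line. Right, intronic share of the peaks in each signal quintile with exact 95% intervals. The intronic median is 48.1 against 86.9 in promoter windows, and the intronic share is 1.43% in the strongest quintile and 12.1% in the weakest.

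Eligible intron, the intronic sequence that the rule could have taken, covers 26.6 Mb or 26.5% of the genome. It held 7.89 peaks per Mb (8.12 ± 0.319, SD over the replicates' own lists, n = 2), against 79.9 per Mb in promoter windows, 16.8 in intergenic sequence and 4.404 in exons, the last 2 outside promoter windows. A further 196 summits were intronic but inside a promoter window, with a median signal of 63.2. At the edge of the windows, the 12 intronic peaks within 100 bp outside had a median signal of 43.9 (30.5 to 390), and the 9 within 100 bp inside had 49.3 (30.7 to 128). Another 36 summits in introns of protein-coding genes were left out because they lay in an exon of a non-coding gene, 25 of them in an ncRNA and 14 in a tRNA, with some in both. The strongest of these had a signal of 1211 and lay in C08C3.10, an ncRNA gene inside an intron of egl-5.

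The Hox gene egl-5, which patterns the posterior body, held the strongest intronic peak and the 8th strongest. Both lie in a single deposited interval, III:7814331-7816992, which is 2662 bp wide where 196 of the 210 peaks are 316 bp wide. The left-out summit of signal 1211, at III:7814755, falls within the same coordinates and within intron 1, and is stronger than both. The summit in intron 1 (III:7814957, signal 504) had a replicate 1 signal of 340 and no replicate 2 summit within 100 bp. The summit in intron 3 (III:7815676, signal 206) had a replicate 2 signal of 420 and no replicate 1 summit within 100 bp. The position of each of these intronic egl-5 peaks was thus found in 1 replicate, and neither window holds an E2F word, CTGCGTC or a GAGAGA repeat. Without this interval 208 peaks remained, led by slc-36.4, and their median percentile in the signal ranking was 31.1, where 31.5 was found with it.

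The other leading peaks were found at similar ranks in both replicates. The peak of slc-36.4, named as a solute carrier (I:9150367, intron 1, signal 481), ranked 171 in replicate 1 and 203 in replicate 2. The peak of epg-9, an autophagy gene (intron 2, signal 390), ranked 252 and 230, and that of set-18, which encodes a SET-domain histone methyltransferase (I:10591727, intron 3, signal 358), ranked 304 and 269. All 3 hosts lacked a promoter peak. The epg-9 summit, however, lay within 100 bp outside a promoter window, and was the strongest of the 12 intronic peaks so placed. The peak of Y111B2A.12 (intron 4, signal 276) ranked 396 and 426, and its host also had a promoter peak of signal 135. The peak of Y75B8A.25 (signal 213) ranked 466 and 647.

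Further hosts among the 20 strongest were dhc-4, named as a dynein heavy chain gene (intron 31, signal 187), F53F1.3 (187), lron-13, a leucine-rich repeat gene (186), and smg-3, which acts in nonsense-mediated mRNA decay (171). Then came Y69A2AR.1 (167), gcn-1, a homologue of the yeast translational regulator GCN1 (165), W06H8.6 (153), klf-1, a Krüppel-like factor gene (144), spop-1 (141) and K11D2.4 (138). In gcn-1 the summit lay 20215 bp downstream of the nearest 5' end, the farthest of all 210, and the promoter peak of the gene had a signal of 754. The weakest intronic peaks were those of W06H8.6 (a further peak, 30.9), src-2, a Src-family kinase gene (30.8), W05B5.1 (30.6), frm-10 (30.5) and lips-10 (30.4). The lips-10 peak ranked 2821 in replicate 1 and 25042 in replicate 2.

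Most hosts held 1 intronic peak. Of the 178 hosts, 155 had 1 and 17 had 2, while zfp-1 and fkh-7 had 3 each and gei-4, hlh-30, pqn-41 and aakg-1 had 4 each. In hlh-30, which encodes the TFEB homologue that controls autophagy and lysosome genes, the signals were 190 in intron 1 and 58.96, 54 and 38.4 in intron 2, and the 3 strongest windows hold an E2F word. In gei-4, all 4 summits lay in intron 1 of 6235 bp, with signals of 208, 55.0, 39.1 and 38.4. The 3 strongest of these lay close together, at III:349575, III:349774 and III:349996. The weaker neighbours were each missing in 1 replicate, the middle one in replicate 2 and the other in replicate 1.

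In pqn-41, which encodes a glutamine- and asparagine-rich protein needed for linker cell death, all 4 peaks lay in intron 14 of 10372 bp. By the lowest number over transcripts all 4 lay in intron 1, and a further 5' end of the gene lay downstream of each. The signals of the 4 peaks were 133, 101.5, 96.3 and 83.7, all above the intronic median, and the GC content of their windows was 55.7% to 56.2%. In aakg-1, which encodes a gamma subunit of AMP-activated kinase, the signals were 78.3, 56.6, 39.96 and 31.8, with no promoter peak. In zfp-1, which encodes the AF10 homologue, they were 146, 74.5 and 44.4, beside a promoter peak of 135. In the forkhead gene fkh-7 they were 37.2, 34.7 and 33.2, with no promoter peak.

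Intron 1 held the largest number of peaks of any single intron number. It held 73 of 210 (34.8%, 28.3 to 41.6, and 33.8% ± 0.0182 in the replicates, n = 2), where 20.9% of eligible intron lies in intron 1. That is 13.1 peaks per Mb, against 9.03 in intron 2, 5.21 in intron 3 and 6.05 in later introns. Intron numbers were taken from the host's longest transcript, and they differed between transcripts for 57 peaks. With the lowest number over transcripts 50.5% were in intron 1. The median signal was 45.99 in intron 1, 44.4 in intron 2, 65.1 in intron 3 and 55.3 in later introns. Among intronic peaks above the median signal of the IDR list, 23.3% of the intronic peaks were in intron 1.

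Host introns were long. Their median length was 2888 bp (3038 ± 387 in the replicates, SD, n = 2), against 68 bp over the 109051 distinct introns of the annotation and 952 bp when each eligible base counts once. Peaks were denser in longer introns, with 3.55 peaks per Mb in introns up to 500 bp, 4.20 up to 1000 bp, 5.14 up to 2000 bp, 13.6 up to 5000 bp and 20.3 in longer introns. The longest class held 76 peaks (36.2%) on 14.04% of eligible bases, and gave 21.9 ± 3.03 peaks per Mb in the replicates' own lists, against 3.82 ± 0.931 in the shortest class. Signal went the other way, with a median of 63.1 in the shortest class and 45.4 in the longest. Within the longest class the density was 21.6 per Mb in intron 1 and 19.3 in later introns, and over 2000 to 5000 bp it was 21.9 and 10.4. From over 1000 to 2000 bp it was 5.91 and 4.99, and up to 500 bp 4.49 and 3.43. Between 500 and 1000 bp the order was the other way, at 3.77 and 4.29. Along the intron, 66 summits lay in the first part, 87 in the middle and 57 in the last when introns were cut into 3 equal parts, against 34.4%, 34.2% and 31.4% of eligible bases.

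**Figure D2:**
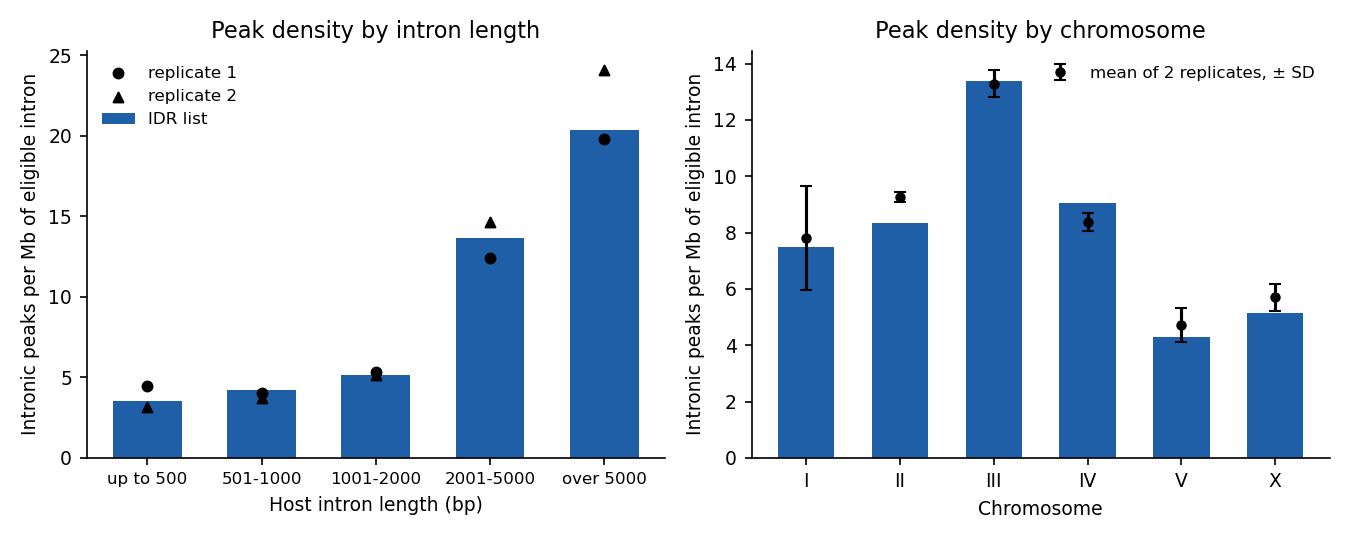
Intronic peaks per Mb of eligible intron by host intron length (left) and by chromosome (right). Bars show the IDR list, points on the left the own list of each replicate, and points on the right their mean with its SD (n = 2). Density reaches 20.3 per Mb in introns over 5000 bp and 13.4 per Mb on chromosome III.

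Many of these sites lie before a further gene start of their own host. In 110 of 210 peaks (52.4%, 45.4 to 59.3, and 54.8% ± 4.07 in the replicates, n = 2) the host had an annotated 5' end of a shorter transcript downstream of the summit, against 23.6% of eligible bases. The density was 17.5 peaks per Mb in such sequence and 4.92 elsewhere. Long introns hold more of this sequence, and the order of these densities differed between length classes. In introns over 5000 bp the density was 23.3 before such a 5' end and 10.4 elsewhere, and over 2000 to 5000 bp it was 20.1 and 8.96. From over 1000 to 2000 bp it was 8.39 and 4.498. In shorter introns the order was the other way, with 2.71 and 3.598 up to 500 bp and 1.94 and 4.41 from there to 1000 bp, where 1 peak in each class lay before such a 5' end. The nearest 5' end of any gene was that of a host in 181 peaks. It lay downstream of the summit in 67 peaks (31.9%), against 19.8% of eligible bases, and the zone that begins at the outer edge of the promoter window and ends 2000 bp before a 5' end had the highest density of the distance classes (15.3 per Mb). The zone from the inner edge of the window to 500 bp after a 5' end had the lowest (3.49 per Mb).

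Chromosome III carried 59 intronic peaks, or 13.4 per Mb of its eligible intron (13.3 ± 0.482 in the replicates, n = 2). The lowest densities were 4.29 on V (4.72 ± 0.607) and 5.14 on X (5.70 ± 0.474), and I, II and IV lay between at 7.501, 8.33 and 9.04. The replicate means of III and of every other chromosome were separated by more than their SDs. These SDs measure only how alike the 2 replicate lists are and not the counting error, and no difference between chromosomes was tested. Of all IDR peaks on a chromosome, 9.66% were intronic on III and 9.06% on X, so the low density on X goes with few IDR peaks there in all (254). Likewise, the high density on III goes with the most IDR peaks of any chromosome (611). The intronic share was 8.62% on IV, 6.46% on II, 6.21% on I and 5.10% on V. The strongest intronic peak on X had a signal of 88.2.

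Hosts often carried a promoter peak too. A promoter peak was present in 60 of 178 hosts (33.7%, 26.8 to 41.2, and 34.5% ± 0.0938 in the replicates, n = 2), against 13.4% of the 17315 genes with eligible intron. Hosts made up 1.03% of those genes. A peak counted for every gene with any transcript 5' end whose window held it, so genes with more 5' ends had more windows. The number of 5' ends was not taken into account. Hosts had more eligible intron (median 5294 bp against 683 bp), and among all genes a promoter peak was found in 12.99% with up to 1000 bp, 12.9% with over 1000 to 5000 bp, 19.4% with over 5000 to 10000 bp and 21.1% above. Among genes with over 10000 bp, 34.1% of hosts had one, among those with over 5000 to 10000 bp 36.7%, over 1000 to 5000 bp 32.4%, and up to 1000 bp 4 of 14 hosts (28.6%). The intronic peak was weaker than the host's promoter peak in 48 of 75 peaks, with a median ratio of 0.685.

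Cell-cycle genes are the known DREAM targets. In the list of DNA replication and mitosis genes used here, which does not hold every cell-cycle gene, 2 of 50 with eligible intron were hosts (1.03% over all genes), cye-1 (cyclin E, signal 56.8) and pola-1 (the DNA polymerase alpha subunit, 35.02). These genes have 0.0627 Mb of eligible intron, so the pair gives 31.9 peaks per Mb, against 7.89 over all eligible intron. That density rests on only 2 peaks, has no counting interval here, and was not tested. The promoter peaks of both genes were stronger, at 344 and 490. Outside the list, the hosts mix-1, which encodes a condensin subunit (86.9), and tim-1, the Timeless homologue (31.4), named after their values were seen, also had stronger promoter peaks (251 and 657). Developmental transcription factor genes gave 9 hosts of 91 (9.89%) and 14 peaks on 0.358 Mb, or 39.2 per Mb. After hlh-30 came lag-1, the Notch pathway factor (74.0), skn-1, the Nrf homologue (67.7), daf-16, the FOXO gene (52.6), mdl-1 (48.6), mef-2 (46.2), sma-9 (41.4) and lin-1, an ETS factor (38.7). The lin-1 host intron was the longest of all, at 20948 bp. Of 9 such hosts, 6 had a promoter peak, and in hlh-30, mdl-1, mef-2 and sma-9 the strongest intronic signal was above that of the promoter peak (51.5, 37.8, 39.5 and 30.6).

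Signalling genes gave 4 hosts of 71, the TOR kinase gene let-363 (68.96), the ERK gene mpk-1 (61.5), the Smad gene daf-14 (53.3 and 33.4) and the cGMP-dependent kinase gene egl-4 (47.5). Heterochronic genes, which time larval development, gave 2 of 13, kin-20 (47.02) and the nuclear receptor gene daf-12 (45.4). The chromatin list gave zfp-1 and ssl-1 (39.2) of 54. Nuclear hormone receptor genes gave 6 of 264, led by nhr-19 (130), nhr-31 (75.3) and nhr-3 (56.1). The collagen genes gave col-72 (65.9) of 110, and the twk potassium channel genes twk-5 (39.3) of 44. Hosts were 1.03% of all genes with eligible intron. Densities were 13.9 per Mb in the signalling list, 26.9 in the heterochronic, 27.3 in the chromatin and 18.1 in the nuclear receptor list. The heterochronic value rests on 2 peaks, and those of the collagen (23.4) and twk genes (7.62) on 1 each. No host was found among 65 axon guidance and adhesion genes with 0.446 Mb of eligible intron, 88 neuronal genes with 0.470 Mb, 55 muscle genes with 0.221 Mb or 63 ceh homeobox genes. The FMRFamide-like peptide genes (29) and the ribosomal protein genes (19 and 15 with eligible intron) held none either. These counts are over genes of unequal intron length and were not tested. A count of 0 allows a density of up to 6.72 per Mb in the axon guidance list, 6.39 in the neuronal list and 13.6 in the muscle list (3 counts, counting error only), against 7.89 over all eligible intron. The limits of the muscle list, the ceh genes (26.2), the FMRFamide-like peptide genes (80.8) and the ribosomal protein genes (1263 and 2256) lie above that value, so at this number of peaks a lower density in them was not detectable.

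E2F words were found under intronic peaks about as often as under other peaks. A word lay within 100 bp of the summit in 44 of 210 (20.95%, 15.7 to 27.1, and 19.7% ± 1.101 in the replicates, n = 2), against 23.1% of all IDR peaks, 24.1% of promoter-window peaks and 8.17% of the 98433 non-overlapping eligible intron windows of the same length. The share was 26.7% in the stronger and 15.2% in the weaker part when the intronic peaks were split at their median signal. The median signal was 57.98 with the word and 46.2 without. TTCCCGC was the most frequent form, in 17 peaks (8.10%, against 6.78% of promoter-window peaks). E2F words can overlap each other on opposite strands, and words of different kinds can share end letters, in which case both were counted.

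CHR words (TTTGAA or TTCGAA, both strands) went the other way. They lay in 73 intronic peaks (34.8%, 28.3 to 41.6, and 37.1% ± 3.42 in the replicates, n = 2), against 52.1% of all IDR peaks, 56.6% of promoter-window peaks and 62.4% of eligible intron windows. Intergenic peaks had 40.3% and exonic peaks 39.8%. By signal quartile of the intronic peaks, weakest first, the CHR shares were 33.96%, 34.6%, 28.8% and 41.5%. Promoter-window peaks of the same signals had 45.6%, 47.8%, 47.1% and 60.7%. In 22 intronic peaks both an E2F and a CHR word were found. The 10 strongest of these were epg-9, set-18, Y75B8A.25, gei-4, hlh-30, F53F1.3, smg-3, Y69A2AR.1, unc-84, which encodes a SUN-domain protein of the nuclear envelope (77.1), and nhr-31.

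GAGAGA repeats lay in 107 intronic peaks (50.95%, 43.98 to 57.9, and 51.6% ± 2.88 in the replicates, n = 2), against 36.8% of all IDR peaks, 31.8% of promoter-window peaks and 7.67% of eligible intron windows. Intergenic peaks outside windows had 55.6%. By signal quartile of the intronic peaks, weakest first, the GAGAGA shares were 43.4%, 55.8%, 55.8% and 49.1%. Promoter-window peaks of the same signals had 39.3%, 33.2%, 40.2% and 27.7%. In 32 intronic peaks the window held 4 or more matches, overlapping ones included, up to 22 in a gei-4 peak of signal 38.4 and 20 each in Y53G8AM.8, daf-16 and aakg-1. The share of other peaks with 4 or more matches is not given. The word CTGCGTC, chosen after the sequences above were seen, lay in 50 intronic peaks (23.8%, 18.2 to 30.2, and 23.6% ± 3.00 in the replicates, n = 2). It lay in 16.4% of all IDR peaks, 14.1% of promoter-window peaks, 25.5% of intergenic peaks and 1.58% of eligible intron windows. When TCTC follows CTGCGTC, a match on the opposite strand of GAGAGA shares its last letters. At least 1 of the E2F words, the repeat and CTGCGTC was found in 145 intronic peaks (69.05%), 53.2% of promoter-window peaks and 15.97% of eligible intron windows.

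**Figure D3:**
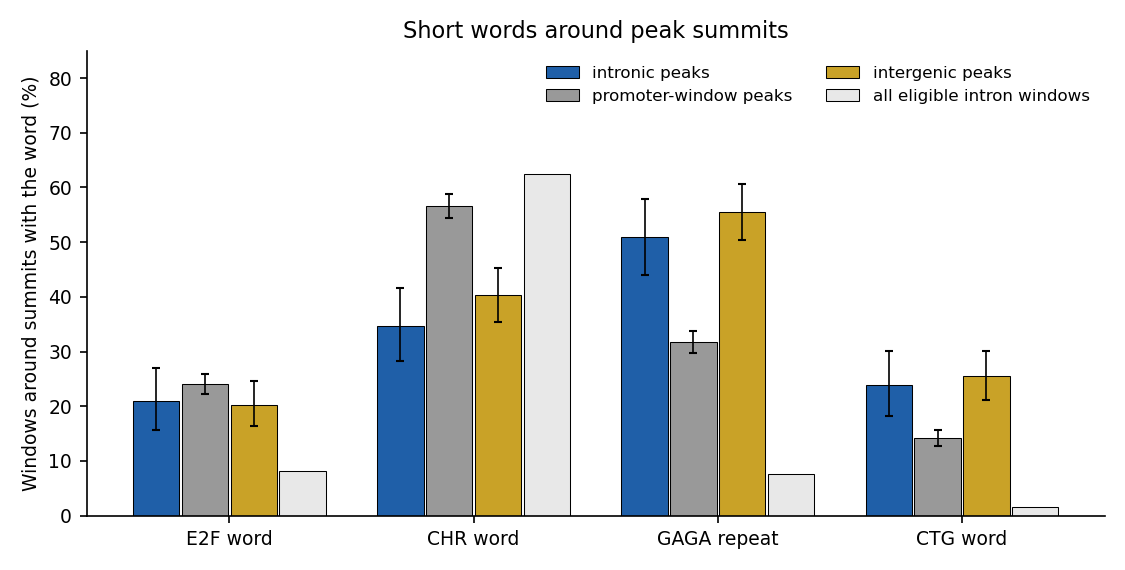
Share of the windows around summits that hold each kind of short word, for intronic, promoter-window and intergenic peaks with exact 95% intervals, and for all eligible intron windows. The CTG word is the one chosen after the sequences were seen. Intronic and intergenic peaks hold the GAGA repeat in 50.95% and 55.6% and the CHR word in 34.8% and 40.3%.

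Base composition moved with these shares. The median GC content was 44.3% in intronic peak windows, 44.8% in intergenic, 39.8% in promoter-window peaks and 31.8% in eligible intron windows. Repeat-masked bases made up a median of 17.4% of the intronic peak windows and 53.2% of the eligible windows. Within windows of 45% to 50% GC, GAGAGA was found in 60.4% of 53 intronic peaks and 17.8% of 4017 eligible windows, CTGCGTC in 37.7% and 6.47%, and the E2F words in 15.1% and 17.5%. Within windows under 35% GC, the E2F words were found in 7 of 19 intronic peaks (36.8%) against 5.44% of eligible windows. The part of base composition in the shares was not tested beyond these classes. The CHR words were found in 63.2% of intronic peaks and 71.6% of eligible windows under 35% GC, in 52.3% and 53.2% from 35% to 40%, in 29.8% and 40.4% from 40% to 45%, in 33.96% and 28.8% from 45% to 50%, and in 12.8% and 16.5% above. A gene that is not protein-coding, pseudogenes included, lay within 200 bp of 49 summits (23.3%, 17.8 to 29.6, and 20.3% ± 2.48 in the replicates, n = 2). That compares with 16.6% of all IDR peaks, 12.1% of promoter-window peaks, 19.7% of intergenic peaks and 5.97% of eligible intron. Among the 49 were summits beside a tRNA gene, 45 bp away in cye-1, and an snRNA gene, 62 bp away in dhc-4. Their part in the signal was not tested.

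The replicates matched less often at intronic peaks than at promoter-window peaks, and about as often as at intergenic peaks. Of the 210, 135 (64.3%, 57.4 to 70.8) had a summit within 100 bp in the 2797 strongest peaks of both replicates, against 77.9% of all IDR peaks and 82.7% of promoter-window peaks. The share was 64.7% in intergenic and 58.3% in exonic peaks. In the full lists of 30000 peaks per replicate, 191 (91.0%) were matched in both, against 95.9% of all IDR peaks. At like signal the difference from promoter-window peaks was small. In the weakest quartile of the intronic signals 13.2% were in both top lists, and 15.9% of promoter-window peaks of the same signal. In the next quartile the shares were 57.7% and 58.03%, then 90.4% and 92.3%, and in the strongest 96.2% and 99.2%. Intergenic peaks of the same signals gave 18.2%, 59.1%, 84.5% and 95.6%, from the weakest quartile to the strongest. Over the 191 matched peaks replicate 1 and replicate 2 signals gave Spearman's rho = 0.665 and Pearson's r = 0.721 (log2 signals), as a description over peaks that share their libraries. Over 2033 promoter-window peaks, which span a wider range of signal, these were 0.894 and 0.910. The replicates' own intronic peaks shared 125 summits, which is 59.5% of those of replicate 1 and 56.3% of those of replicate 2.

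**Figure D4:**
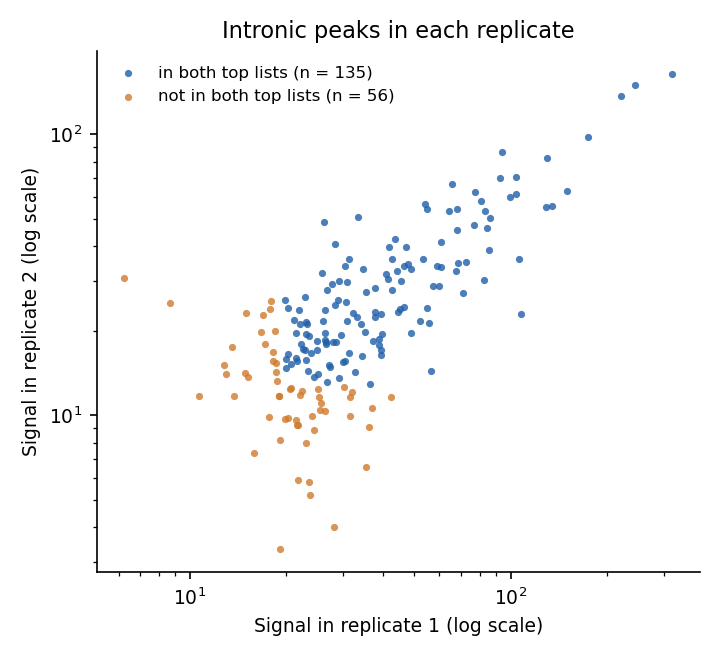
Signal of the 191 intronic peaks that were matched in the full lists of both replicates, replicate 1 against replicate 2, both on log scales. Blue points are in the 2797 strongest peaks of both replicates (135), orange points are not. Spearman's rho over all points is 0.665.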

How the data were processed

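The deposited listing of files says that relaxed peak lists were made from each replicate and from both together, each with a control, and that the IDR list was derived from these. No source used here gives the aligner, the caller, the IDR threshold or the depth, so no depth-based limit is given. The deposited signal of a peak is its strength in the authors' caller, on an unstated scale, and the deposited −log10 q values were not used. The IDR list was the top 2797 of the 23883 rows of the pooled list of peaks and background. Errors come from each replicate's own 2797 strongest peaks, treated alike.

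Summits were placed on Ensembl release 115 for WBcel235, the build of ce11, with Python 3.11.15, numpy 2.4.6 and scipy 1.17.1. Lists of the ce10 build were not used. Intervals are exact 95% Clopper-Pearson intervals and cover counting error only. With 1 group nothing was tested. Classification was checked at random genome positions against a plain interval search, and matching and word search were tested on simulated data. Of 505 genes asked for by name, 499 were matched. Genes named are the hosts of the 20 strongest and 5 weakest peaks, of 3 or more peaks, of the 10 strongest peaks with E2F and CHR words, and up to 3 hosts per list. Other names, such as pygl-1 and further list hosts, were chosen after their values were seen. The members and lists were chosen with earlier results of these data known.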

Additional observations from a re-analysis of the deposited data

How the results depend on the processing

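The number of intronic peaks was 255 with a promoter window from 500 bp upstream, 145 with one from 2000 bp upstream to 500 bp downstream, 246 with exons of protein-coding genes only and 60 above the list's median signal. The intronic share was then 9.12%, 5.18%, 8.80% and 4.29%, and 7.51% to 7.94% with either replicate left out. The median signal percentile was 30.5 to 35.5 with either replicate left out. The share in intron 1 was 50.5% with the lowest intron number, 37.3% with the narrower and 30.3% with the wider window, 23.3% above the median signal, and 33.8% to 33.8% with either replicate left out. The share with an E2F word was 13.3% within 50 bp, 24.8% within 150 bp, 11.4% for words with a leading T, 33.3% above the median signal, and 18.9% to 20.5% with either replicate left out. The share with a CHR word was 19.5%, 50%, 27.1% with TTTGAA alone, 41.7% above the median signal, and 34.7% to 39.5%. The share with a GAGA repeat was 34.8% within 50 bp, 58.1% within 150 bp and 16.2% for GAGAGAGA. The share with CTGCGTC, a choice made after seeing the data, was 12.9% within 50 bp, 19.05% for CTGCGTCTC and 28.3% above the median signal. The share matched in both top lists was 48.1% with summits within 50 bp, 91.0% in the full lists and 20% in lists cut to their stronger 50%. The share of hosts with a promoter peak was 23.6% with the narrower and 51.7% with the wider window, and 34.5% to 34.6% with either replicate left out. No paired analysis was possible because there is 1 group. Depth is unknown, so how many weaker intronic sites fell below the threshold cannot be given.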
